A study of Mus musculus with 4 samples.

Results

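The 4 metallothionein genes of the mouse, *Mt1*, *Mt2*, *Mt3* and *Mt4*, were followed through the compartments of dorsal skin by spatial transcriptomics. The genes were selected on their measured levels across these compartments, so those levels are given as a description with no test. They are 4 of the 32286 features counted, and all 4 had UMIs (unique molecular identifiers, 1 for each captured RNA molecule). The dorsal skin was taken at P38 from 3 mice that carried *Krox20-CreERT* and *R26-tdTomato*. 4-hydroxytamoxifen at P2 turned on the *tdTomato* reporter in *Krox20*-expressing cells. Every slice carries this genotype and treatment, so no comparison with untreated or wild-type skin was made. *CreERT* sits behind *Krox20* in its own locus, so the reporter starts in cells that express *Krox20*. Visium captures the RNA of a section in spots, and a spot can cover cells of different types. Each of 4 slices held a section of each of the same 3 mice. The study left out a further section for its distorted structure, and since the labels do not tell which deposited spots that is, all spots are used here and the slice values may include it. The slices are technical replicates, and every SD and p-value below measures the spread between slices, not between mice.

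Metallothioneins are small cysteine-rich proteins that bind zinc and copper in the cytosol. *Mt1* and *Mt2* are made in most tissues. They are induced by glucocorticoids and, largely through the zinc-sensing factor MTF1, by zinc, copper, cadmium and oxidative stress. *Mt3* is known from brain, and *Mt4* from stratified squamous epithelia. In growing hair, matrix cells divide around the dermal papilla in the bulb at the base of the follicle, and their progeny move up into the shaft and the inner root sheath.

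A total of 6411 of 6420 deposited spots passed a minimum of 250 detected genes. The slices held between 19393026 and 26910422 UMIs, and slice 1 was the deepest (median of 14627 UMIs in a spot, with medians of 11662 to 11989 in slices 2 to 4). A spot was assigned to the compartment whose marker genes had the largest mean z-score in it, if that mean reached 0.5. This gave 11 compartments of 310 to 992 spots and 191 unassigned spots, with 190 spots lying within 0.1 of the minimum. The list genes were at least 2-fold higher inside their own compartment than outside it for every gene of the epidermis, upper follicle, sebaceous gland, matrix, late shaft, dermis and muscle lists. Of the outer root sheath list 6 of 8 were, of the inner root sheath list 5 of 8, of the early shaft list 6 of 7 and of the adipose list 6 of 8. Genes of the inner root sheath list spread widely. They summed to 67799 CPM in inner root sheath, 56266 CPM in early shaft, 52284 CPM in late shaft and 27711 CPM in muscle spots. The median z-score of this list was 0.87 in early shaft against 1.09 in inner root sheath spots, so it separates these compartments poorly. CPM is the UMIs of a gene, or of a list, per 1000000 UMIs of the same spots.

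The 4 genes lie side by side on the forward strand of chromosome 8 within 43131 bases (GRCm38, GENCODE M21). In order they are *Mt4* (ENSMUSG00000031757, chr8:94137197-94139031), *Mt3* (ENSMUSG00000031760, chr8:94152607-94154146), *Mt2* (ENSMUSG00000031762, chr8:94172664-94173568) and *Mt1* (ENSMUSG00000031765, chr8:94179082-94180327). *Mt2* and *Mt1* are the closest pair, 5513 bases apart. Over all kept spots *Mt1* had 36661 UMIs, *Mt2* 34298, *Mt4* 57741 and *Mt3* only 134.

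The sequence before each start was searched for the core of the metal response element, the site MTF1 binds, spelled TGCACNC or TGCGCNC and read on both strands. In the 250 bases before the RefSeq start, *Mt2* held 3 matches, *Mt1* 1, *Mt4* 1 and *Mt3* 0, and no match overlapped another. Of 32851 RefSeq promoter windows of the same length, 21.4% held at least 1 match and 1.26% at least 3. RefSeq (GRCm38.p6) starts *Mt1* at 94179089, and 1 of its models begins further upstream, so the windows of *Mt1* depend on the model. It starts *Mt2* at 94172618, upstream of the GENCODE start given above, so the windows of *Mt2* depend on the model too. Matches before a start are therefore not a count of promoter sites, and those after it may lie before another start. In the 250 bases after the start, *Mt1* and *Mt2* held 4 matches each, *Mt3* held 3 and *Mt4* held 0, and 0.265% of all such windows held at least 4. A match says only that these letters are present. The upstream windows of *Mt2* and *Mt4*, the members with contrasting patterns below, and the surroundings of the *Mt1* match are shown on the forward strand, with matches in capitals:
*Mt2*, chr8:94172368-94172617: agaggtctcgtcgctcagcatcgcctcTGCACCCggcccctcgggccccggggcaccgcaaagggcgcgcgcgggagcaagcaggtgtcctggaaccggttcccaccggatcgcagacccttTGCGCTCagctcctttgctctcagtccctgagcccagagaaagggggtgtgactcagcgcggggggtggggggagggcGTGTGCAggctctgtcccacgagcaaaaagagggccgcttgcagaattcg
*Mt4*, chr8:94136954-94137196: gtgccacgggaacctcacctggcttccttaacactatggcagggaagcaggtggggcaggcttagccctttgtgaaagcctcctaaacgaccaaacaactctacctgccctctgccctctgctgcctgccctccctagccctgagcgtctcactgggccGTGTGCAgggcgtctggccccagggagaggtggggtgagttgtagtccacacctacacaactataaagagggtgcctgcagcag
*Mt1*, chr8:94179055-94179084: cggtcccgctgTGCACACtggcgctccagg

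*Mt1* and *Mt2* were highest in proliferating-matrix spots, the spots led by cell cycle genes such as *Mki67* and *Top2a*. *Mt1* reached 1277, 1325, 1159 and 1227 CPM there in slices 1 to 4 (1247 ± 71.1, SD, n = 4 slices). No other compartment came near this range, and the nearest one with a name, muscle, lay between 462 and 524 CPM. Epidermis spots held *Mt1* at 252, 209, 184 and 217 CPM, so the matrix was 5.82-fold higher (log2 ratio 2.54 ± 0.15, higher in 4 of 4 slices). Over early shaft spots the log2 ratio was 3.24 ± 0.27 on the CPM scale, on which the median gene was itself 0.27 higher in the matrix. Over upper follicle spots it was 3.42 ± 0.29. Fewer expressing cells per spot and less RNA per cell cannot be told apart in such sums.

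*Mt2* had almost the same pattern. Its matrix levels were 1187, 1201, 1217 and 1318 CPM (1231 ± 59.3, SD, n = 4 slices). Epidermis spots held 269, 211, 220 and 254 CPM, which put the matrix 5.18-fold higher (log2 ratio 2.37 ± 0.16). The groups did not overlap for either gene. The 8.69% of spots in the matrix held 14.8% of all UMIs, but 46.4% of those of *Mt1* and 48.5% of those of *Mt2*. Muscle spots held a further 19.8% and 21.4%.

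**Figure D1:**
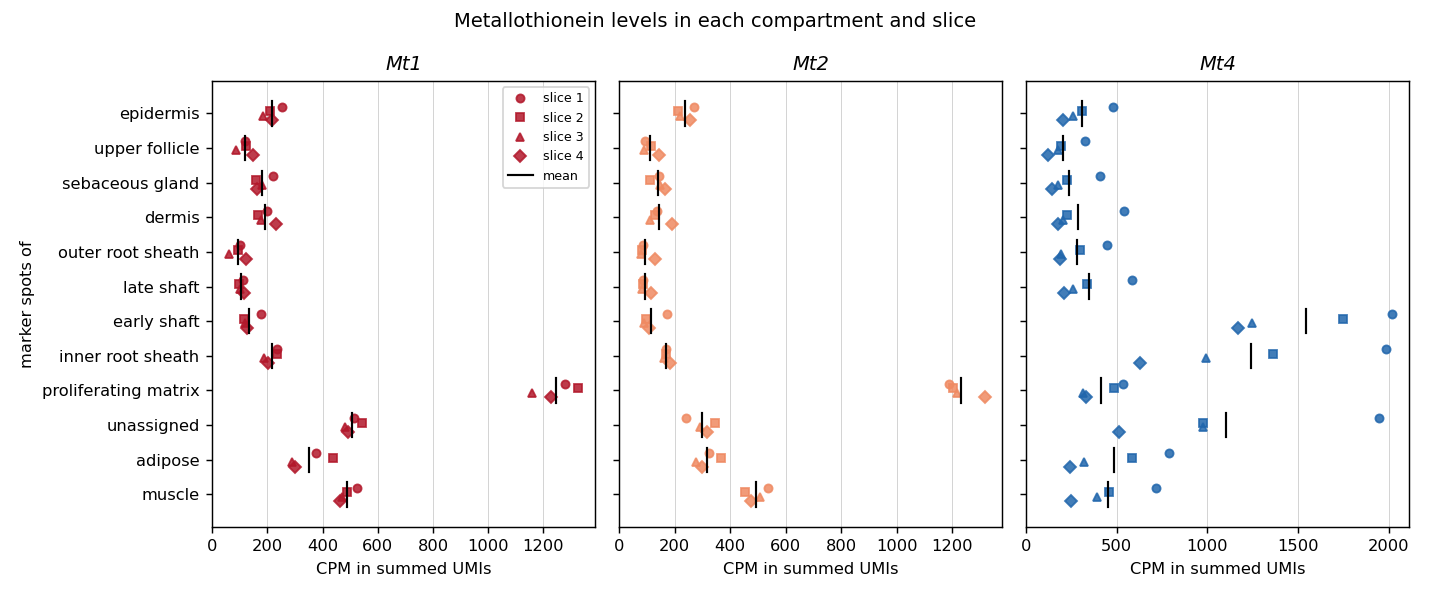
Level of *Mt1*, *Mt2* and *Mt4* (CPM, linear axis from 0) in the summed spots of each compartment, with 1 symbol per slice and a bar at the mean of 4 slices. *Mt1* and *Mt2* stand apart in proliferating-matrix spots (means of 1247 and 1231 CPM), whereas *Mt4* is highest in early shaft and inner root sheath spots and spreads widely between slices.

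Below the matrix the order of *Mt1* was unassigned, muscle, adipose, epidermis, inner root sheath, dermis, sebaceous gland, early shaft, upper follicle, late shaft and outer root sheath. Unassigned and muscle spots did not differ beyond the spread between slices, nor did any neighbours from epidermis to sebaceous gland or from early shaft to outer root sheath. The means ran from 507 CPM in unassigned spots to 94.2 ± 25.2 CPM in outer root sheath spots. For *Mt2* the order was muscle, adipose, unassigned, epidermis, inner root sheath, dermis, sebaceous gland, early shaft, upper follicle, outer root sheath and late shaft. Its lowest means were 93.7 ± 24.2 CPM in outer root sheath spots and 91.5 ± 14.7 CPM in late shaft spots, which did not differ beyond their spread. Within the epithelium above the bulb, both genes were higher in epidermis than in upper follicle spots in 4 of 4 slices, with log2 ratios of 0.88 ± 0.26 for *Mt1* and 1.14 ± 0.34 for *Mt2*.

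The share of spots with at least 1 UMI of a gene also depends on the depth of the spots. *Mt1* was found in 99.6% ± 0.451 of matrix spots, where the median spot held 24018 UMIs, and in 61.3% ± 10.98 of outer root sheath spots, where it held 11217. With each spot reduced at random to 5500 UMIs, which left out 8 and 36 spots, these shares were 98.1% ± 0.946 and 39.3% ± 6.70. RNA can spread between spots on such slides, and its part in the lower levels was not tested.

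*Mt1* and *Mt2* made up similar parts of their sum in most compartments. *Mt2* gave 48.2%, 47.5%, 51.2% and 51.8% of the UMIs of both genes in matrix spots, and 51.6%, 50.2%, 54.5% and 54.0% in epidermis spots. The unassigned spots stood lowest, with 31.9%, 38.9%, 37.7% and 39.1%, below every slice of the matrix and the epidermis. These spots were led by *Mlana*, *Dct*, *Tyrp1* and *Pmel*, genes of melanin-producing melanocytes, and their melanocyte list summed to 3670 ± 729 CPM against 737 ± 171 CPM in matrix spots. *Mt1* was 507 ± 27.6 CPM there and *Mt2* 298 ± 44.8 CPM.

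Levels also differed among matrix spots. The matrix spots of each slice were split by their cell cycle score into 3 groups of about equal size. The same score assigned these spots to the matrix, so those of the lowest group may hold more cells of other types. The mix of cells in a spot and the RNA per cell cannot be told apart in these groups. *Mt1* was 779, 876, 761 and 877 CPM in the lowest group and 1759, 1774, 1629 and 1664 CPM in the highest. *Mt2* went from 818 ± 83.3 to 1665 ± 111 CPM between the same groups, with no overlap. *Mt4* ran the other way, from 566 ± 214 CPM in the lowest group to 317 ± 61.0 CPM in the highest, and was lower in the highest group in each slice. Split instead by melanocyte score, *Mt1* was 1397 ± 110 CPM in the lowest group and 1170 ± 109 CPM in the highest. Across single matrix spots, Spearman's rho of spot CPM was 0.53 to 0.63 between *Mt1* and *Mt2* (4 slices of 117 to 156 spots) and -0.19 to -0.01 between *Mt1* and *Mt4*. Spots of a slice share their library, and rho is given as a description.

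In muscle, *Mt1* was higher close to the matrix. Muscle spots 1 grid step from a matrix spot held *Mt1* at 579, 591, 513 and 550 CPM, those 2 steps away at 432, 428, 439 and 361 CPM, and those 3 or more away at 241, 304, 196 and 206 CPM. The cell cycle list fell alongside, from 670 ± 11.46 to 525 ± 35.2 and 301 ± 75.2 CPM. At 3 steps or more, in only 98 spots, *Mt1* in muscle overlapped its epidermal level. *Mt2* fell likewise, from 582 ± 37.2 to 213 ± 68.0 CPM. *Mt4* did not, at 645, 440, 376 and 243 CPM 1 step away and 2399, 546, 493 and 194 CPM at 3 steps or more, higher there in 3 of 4 slices and far higher in slice 1. How much of these levels is RNA of the neighbouring bulbs was not tested.

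By distance from the epidermis, *Mt1* and *Mt2* peaked farther away than *Mt4*. Each spot was given its number of grid steps to the nearest epidermis spot of the same slice. A slice holds several sections and a step may cross from 1 to the next, so steps are not depth for every spot. At 1 step there were 7 matrix and 12 muscle spots. Steps to the matrix, above and below, have the same limit. *Mt1* fell from 215 ± 28.0 CPM in the epidermis to 138 ± 20.5 CPM at 3 steps, then reached 571 ± 22.4 CPM at 6 steps and 851 ± 190 CPM at 8 steps. At 8 steps the slices held 966, 924, 567 and 946 CPM, and slice 3, which peaked at 7 steps instead, stood apart. *Mt2* also peaked at 8 steps, with 807 ± 133 CPM, and at 7 steps in slice 3. Matrix spots were 109 of 387 spots at 8 steps and muscle spots 229.

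*Mt4* peaked at 6 steps in 3 slices and at 5 in slice 3. Its level was 1977, 1145, 693 and 558 CPM at 6 steps, against 417, 178, 178 and 154 CPM at 1 step. Of the 701 spots at 6 steps, 188 were inner root sheath, 154 matrix, 145 muscle and 117 early shaft spots. In each slice the *Mt4* peak lay 2 steps nearer the epidermis than those of *Mt1* and *Mt2*.

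**Figure D2:**
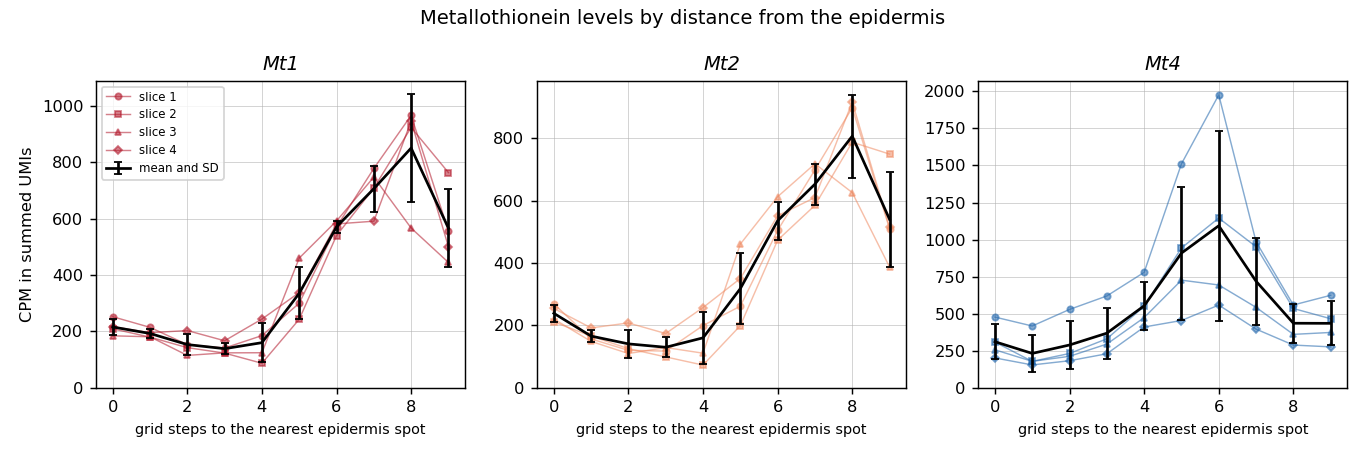
Level of *Mt1*, *Mt2* and *Mt4* (CPM, linear axis from 0) by number of grid steps to the nearest epidermis spot, with a thin line per slice and the mean and SD of 4 slices in black. *Mt1* and *Mt2* have their highest means at 8 steps and *Mt4* at 6 steps.

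*Mt4* was highest where the shaft and the inner root sheath form. Early shaft spots, led by hair keratins such as *Krt31* and *Krt33b*, held 2020, 1748, 1247 and 1167 CPM (1545 ± 408, SD, n = 4 slices). Inner root sheath spots held 1984, 1363, 990 and 628 CPM. The early shaft was higher than the inner root sheath in 4 of 4 slices, but by a log2 ratio of only 0.03 in slice 1 and 0.89 in slice 4 (0.40 ± 0.36). Over epidermis spots, at 477, 308, 256 and 201 CPM, the early shaft was 5.11-fold higher (log2 ratio 2.35 ± 0.21). Over matrix spots, at 535, 484, 314 and 327 CPM, the log2 ratio was 1.90 ± 0.07.

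The 2 shaft compartments differed. Late shaft spots, led by keratin-associated proteins that cross-link the maturing shaft, held *Mt4* at 586, 336, 257 and 210 CPM, a log2 ratio of 2.23 ± 0.31 below early shaft spots. The early shaft and inner root sheath held 23.2% and 24.97% of all *Mt4* UMIs, and 8.29% and 13.2% of the UMIs of all genes. The epidermis, a stratified squamous epithelium, ranked 8 of 12, and did not differ from the late shaft or dermis beyond their spread, although the late shaft was higher in 4 of 4 slices (log2 ratio 0.12 ± 0.13). Adipose, muscle, matrix, late shaft, epidermis, dermis and outer root sheath followed each other within their spread, and upper follicle spots were lowest, at 204 ± 87.7 CPM. Only neighbours were compared in this order, and compartments further apart in it can differ. Epidermis spots held less *Mt4* than muscle spots in each slice (log2 ratio -0.51 ± 0.15), whereas matrix and muscle spots did not differ beyond their spread (-0.06 ± 0.39). *Mt4* was found in 69.2% ± 13.4 of upper follicle spots and 93.6% ± 7.03 of muscle spots, and in 60.1% ± 11.6 and 82.9% ± 11.7 once spots were reduced to 5500 UMIs. Muscle fibers are not known to make *Mt4*. Genes of the inner root sheath list were also found in muscle spots, as given above, and the part of RNA from nearby follicles in both was not tested.

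*Mt4* had a wide spread between slices in most compartments. It was highest in slice 1 in each of the 11 compartments and in the unassigned spots. In inner root sheath spots the highest slice was 3.16-fold over the lowest, a wider spread than that of 99.8% of 5933 genes compared there. In epidermis, late shaft, matrix and muscle spots the wider spread was that of 98.6%, 99.6%, 97.1% and 99.8% of genes, and in early shaft spots 83.7%. *Mt1* spread by 1.27-fold in inner root sheath and 1.14-fold in matrix spots, below the median gene in both. *Mt2* spread most in early shaft spots, by 1.87-fold. Like *Mt4*, the early shaft list was highest in slice 1 in epidermis spots, at 5628, 3143, 3132 and 2415 CPM. In late shaft spots it fell from 16430 CPM in slice 1 to 9836 CPM in slice 4. In inner root sheath spots, where *Mt4* differed 3.16-fold, the list was 7937, 7800, 7834 and 7368 CPM. Inside early shaft spots that list was 22207, 24535, 25544 and 27074 CPM, lowest in slice 1. Slice 1 was also the deepest and held 212 early shaft spots against 52 to 147 in the others. The part of depth and of the cutting plane in the *Mt4* levels was not tested.

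**Figure D3:**
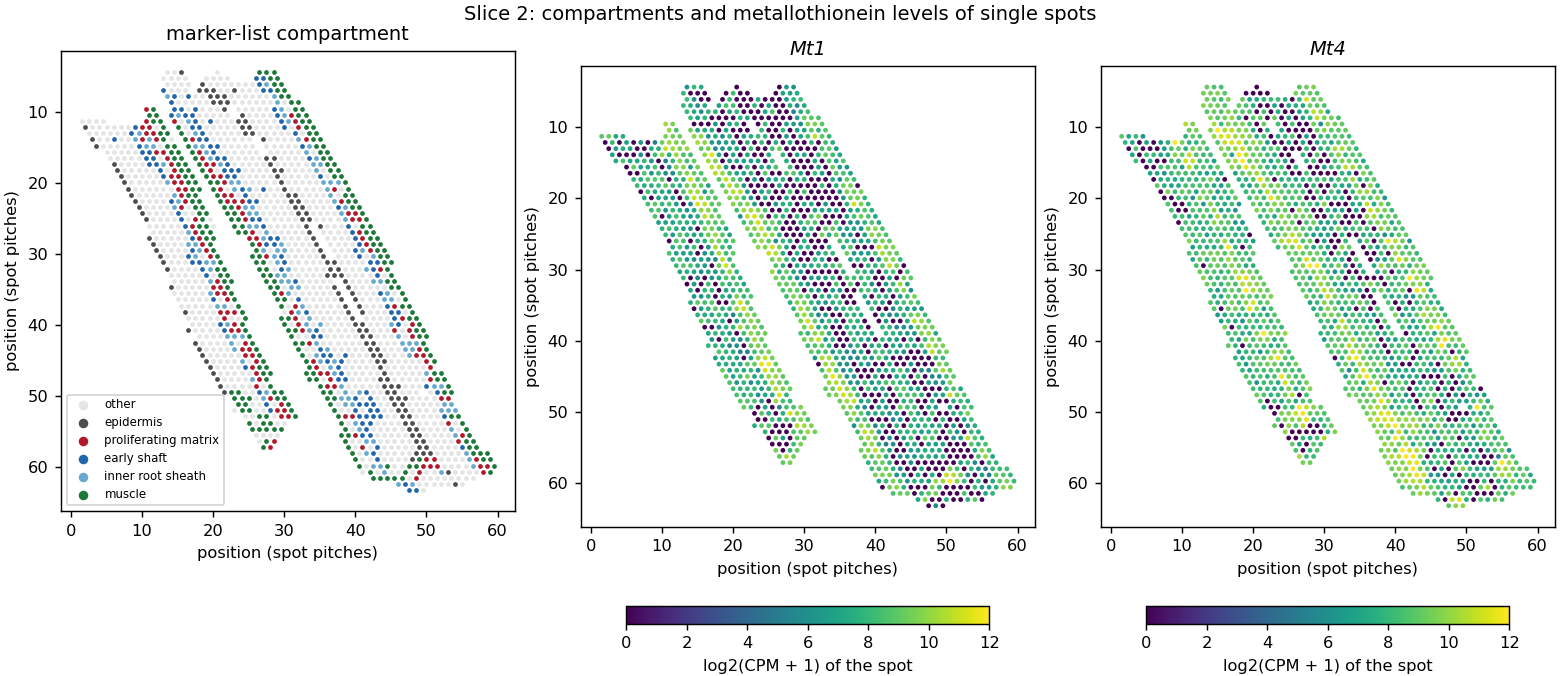
Spots of slice 2 at their positions (both axes in spot pitches), colored by marker-list compartment (left) and by log2(CPM + 1) of *Mt1* (middle) and *Mt4* (right) in each spot. High *Mt1* follows the deep rows of matrix spots, which border muscle, and high *Mt4* the rows of early shaft and inner root sheath spots on their epidermal side.

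Distance from the matrix gave the sharpest contrast between members. Among follicle spots (matrix, sheaths and shafts), *Mt1* dropped from 1247 ± 71.1 CPM in the matrix to 238, 228, 198 and 228 CPM 1 step away, and to 103 ± 6.36 CPM at 2 steps. *Mt2* dropped from 1231 ± 59.3 to 184 ± 13.5 and 90.8 ± 15.04 CPM. *Mt4* instead was 2028, 1672, 1012 and 661 CPM at 1 step, higher than in the matrix in 4 of 4 slices. At 2 and 3 steps it was 897 ± 391 and 439 ± 239 CPM. Step 0 is the matrix itself, and steps 1 to 5 held 664, 724, 585, 368 and 134 spots.

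**Figure D4:**
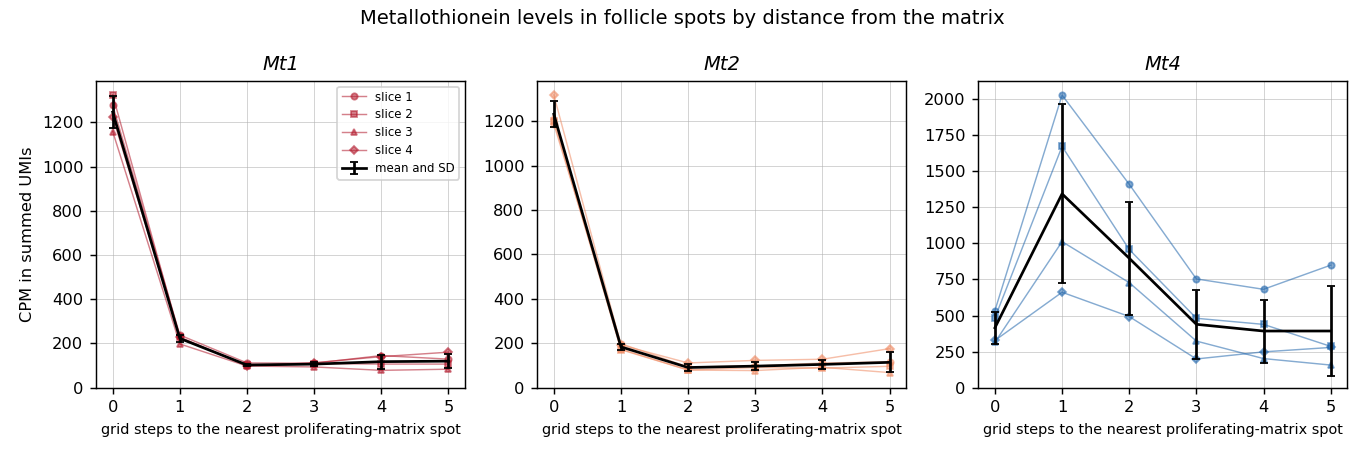
Level of *Mt1*, *Mt2* and *Mt4* (CPM, linear axis from 0) in follicle spots by number of grid steps to the nearest proliferating-matrix spot, with a thin line per slice and the mean and SD of 4 slices in black. *Mt1* and *Mt2* are highest at step 0, the matrix, and *Mt4* is highest 1 step away.

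A small part of the spots carried much of each gene. The 5% of spots with the most *Mt1* UMIs held 37.7% to 42.2% of that gene's UMIs, whereas the 5% deepest spots held 11.8% to 13.5% of all UMIs. Ranking spots by a gene's own UMIs raises its share, and other genes were not ranked in this way. For *Mt4* the share was 32.7% to 40.9%, and 1 spot of slice 1 held 379 *Mt4* UMIs. Ranked by spot CPM, the top 5% for *Mt1* (321 spots) were 85.4% matrix spots. The top 5% for *Mt4* were 51.1% inner root sheath and 31.2% early shaft spots, with 2.49% in the matrix.

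*Mt3* was close to absent. Its 134 UMIs were spread over 12 groups of spots, with 58 in muscle, 31 in the matrix and 13 in dermis. Muscle spots held 2.79, 2.87, 5.08 and 4.95 CPM, and the pooled level was 3.88 CPM (exact Poisson 95% interval 2.95 to 5.02, which covers counting error only). Matrix spots held 2.67, 2.51, 2.66 and 0.79 CPM, a pooled 2.28 CPM (1.55 to 3.23). The intervals of muscle and matrix overlap, and those of the epidermis (1.51 CPM, 0.65 to 2.97) and dermis (2.19 CPM, 1.17 to 3.75) reach both. Early shaft spots had 1 UMI and inner root sheath spots 2, a pooled 0.13 CPM (0.0033 to 0.73) and 0.16 CPM (0.020 to 0.60). The share of spots with *Mt3* was at most 5.36% in any compartment, so no order among the other compartments can be read at this depth.

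The genes whose levels followed the members most closely were found by Pearson's r of log2(CPM + 1) over 44 sums (11 compartments in 4 slices), among 6290 genes with a mean of at least 20 CPM. The sums share libraries, so r is a description. For *Mt1* they were *Mt2* (r = 0.98), *Odc1* (0.96), *Stmn1* (0.95), *H2afz* (0.93) and *Sat1* (0.93). *Odc1* makes the polyamine putrescine, *Sat1* acetylates polyamines for their removal, *Stmn1* encodes a microtubule-destabilizing protein and *H2afz* a histone variant. All 5 were highest in matrix spots. *Odc1* was at 208 CPM in matrix and 47.7 CPM in epidermis spots.

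For *Mt2* the list was *Mt1* (0.98), *Mki67* (0.95), *Stmn1* (0.95), *Rbbp7* (0.94) and *Ube2c* (0.94), of which *Mki67* and *Ube2c* belong to the list that named the matrix. For *Mt4* it was *Eif3d* (0.93), *Ctps* (0.90), *Krt31* (0.90), *Tubb6* (0.88) and *Fbp1* (0.88). *Ctps* makes CTP, *Tubb6* is a beta-tubulin and *Krt31*, a hair keratin, is in the early shaft list. *Ctps* was at 519 CPM in early shaft and 99.1 CPM in epidermis spots. *Mt4* had r = 0.13 with *Mt1* and 0.06 with *Mt2*.

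Genes that move zinc and copper, or that answer metals, oxidants and glucocorticoids, were not used to choose the members and were tested. Their lists were chosen with earlier results of these data known, so the p-values are not those of an independent choice. UMIs were summed per slice and compartment, and matrix spots were compared with epidermis, early shaft and upper follicle spots by edgeR's quasi-likelihood test. A gene was called at a Benjamini-Hochberg adjusted p under 0.05 over all genes and at least a 2-fold difference. Of the 63 listed genes, 55 passed the filter on low counts. The other 8, among them the copper pumps *Atp7a* and *Atp7b*, had at most 110 UMIs each.

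Against the epidermis, 10 of the 55 were higher in the matrix and 10 lower (18.2% each). Of all 11779 genes tested without the compartment markers, 13.4% were higher and 21.1% lower, so the lists as a whole were near this background. Their median log2 fold change was -0.02 against 0.01 for all genes.

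The largest differences among the higher genes were those of the zinc carriers *Slc39a10* and *Slc30a1*. *Slc30a1* (ZnT1), which exports zinc through the plasma membrane, was 491, 477, 530 and 550 CPM in matrix spots and 147, 125, 134 and 156 CPM in epidermis spots. The groups did not overlap, and the log2 fold change was 1.82 (SE 0.10, edgeR adjusted p = 1.55e-22). *Slc39a10* (ZIP10), a zinc importer, was 301, 313, 301 and 316 CPM in the matrix and 64.6, 40.1, 53.4 and 81.7 CPM in the epidermis (log2 fold change 2.31, SE 0.13, edgeR adjusted p = 2.87e-22). The importers *Slc39a6* (261 ± 19.0 against 111 ± 13.6 CPM) and *Slc39a14* (38.9 ± 2.72 against 15.5 ± 4.41 CPM) were also called higher. Lower in the matrix were *Slc30a3* and *Slc30a4*, from the list of zinc exporters and vesicle loaders, and the importer *Slc39a2*. *Slc30a3* was close to absent in both, at 0.27 ± 0.37 CPM in matrix and 1.85 ± 0.77 CPM in epidermis spots. Of the zinc exporters and vesicle loaders, 1 of 7 was thus called higher and 2 lower, and of the importers 3 of 11 higher and 1 lower. The median log2 fold change was -0.15 for the exporters and vesicle loaders and -0.43 for the importers, against 0.01 for all genes. The zinc lists as a whole were thus not higher in the matrix.

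*Slc30a1* had its highest mean in the matrix and a nearly equal one, 472 CPM, in inner root sheath spots, unlike *Mt1* at 215 CPM there. Over the 44 sums its r was 0.70 with *Mt1*, 0.68 with *Mt2* and 0.55 with *Mt4*. Against early shaft spots, at 255, 250, 244 and 265 CPM, its log2 fold change of 0.80 (edgeR adjusted p = 1.68e-10) fell short of the 2-fold minimum under TMM scaling. By CPM the means were 512 ± 33.5 and 254 ± 9.09, so that its side of the minimum rests on the scaling.

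Of the metal-responsive transcription list, *Mtf1* itself did not pass the test, with 14.2 ± 1.14 CPM in matrix and 15.1 ± 3.37 CPM in epidermis spots (log2 fold change -0.14, edgeR adjusted p = 0.56). *Mtf2*, a Polycomb protein despite its name, was the only 1 of 4 called, with 37.1 ± 4.41 against 11.96 ± 3.05 CPM.

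Most copper genes were not called. *Atox1*, the copper chaperone that delivers to the ATP7 pumps, was 841 ± 65.1 CPM in matrix and 395 ± 42.6 CPM in epidermis spots (log2 fold change 1.05, SE 0.14, edgeR adjusted p = 8.07e-09). *Slc31a2*, a copper transporter of endosomes and lysosomes, was lower (21.6 ± 7.44 against 75.4 ± 11.1 CPM). The other 9 of 11 were not called.

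Of 15 genes of the NRF2 and glutathione list, 4 were called higher (26.7%, against 13.4% of all genes), 2 lower (13.3%, against 21.1%) and 9 neither. The genes called higher in the matrix were *Gclc*, *Gclm* and *Gss*, which make glutathione, and *Slc7a11*, which imports the cystine for it. Their log2 fold changes lay between 1.00 and 1.24, at the 2-fold minimum or just over it. *Hmox1*, which breaks down heme, was 6.30 ± 1.76 against 46.2 ± 3.36 CPM and *Nqo1* 2.46 ± 0.45 against 7.52 ± 1.69 CPM, and both were called lower. *Nfe2l2*, which encodes NRF2, was not called (38.3 ± 6.33 against 42.2 ± 8.75 CPM), nor were *Keap1*, *Gsr*, *Txn1*, *Txnrd1*, *Srxn1*, *Gpx1*, *Gpx4* and *Prdx1*.

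Against the epidermis, glucocorticoid-response genes were lower or not called. Of 7 tested, *Dusp1*, *Tsc22d3*, *Sgk1* and *Klf9* were called lower in the matrix (57.1%, against 21.1% of all genes), with a median log2 fold change of -1.16. *Dusp1*, a phosphatase that is also an immediate-early gene, was 8.50, 5.02, 5.91 and 12.7 CPM in the matrix and 193, 210, 184 and 225 CPM in the epidermis. The receptor gene *Nr3c1* was 32.9 CPM in matrix and 61.9 CPM in epidermis spots, a difference that fell short of the 2-fold minimum. The low level was not particular to the matrix. The list summed to 171 ± 13.4 CPM in matrix, 167 ± 25.9 CPM in inner root sheath and 182 ± 17.9 CPM in early shaft spots. Against early shaft spots, 0 of 7 were called lower and 1 higher.

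**Figure D5:**
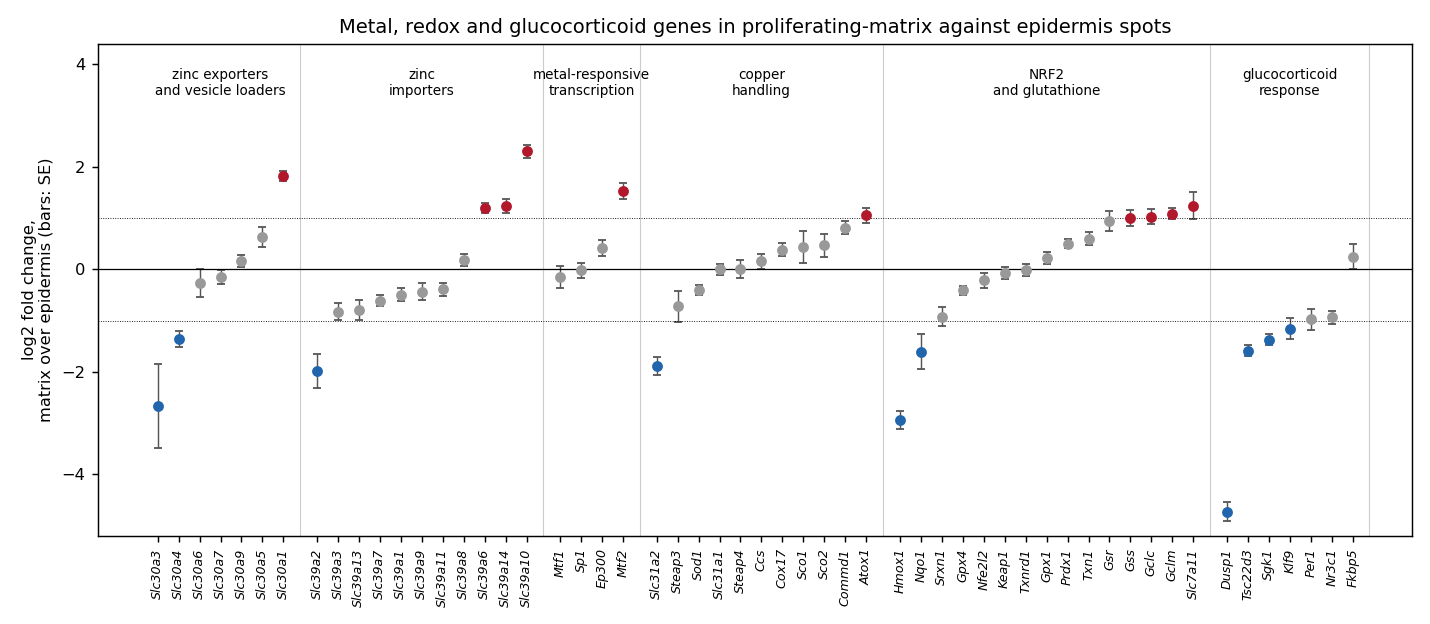
Log2 fold change (edgeR) of each tested list gene in proliferating-matrix over epidermis spots, with its SE as a bar, grouped by list. Red points were called higher, blue points lower and gray points neither, and dotted lines mark the 2-fold minimum; *Slc39a10* is the highest at 2.31 and *Dusp1* the lowest at -4.73.

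Against early shaft spots, 2 of 55 list genes were higher in the matrix and 9 lower, where 8.72% of all genes were higher and 14.3% lower. Higher were *Gpx1*, a glutathione peroxidase (375 ± 41.6 against 148 ± 28.1 CPM), and *Fkbp5*. Lower were the redox genes *Srxn1*, *Txnrd1*, *Slc7a11* and *Hmox1* and the importer *Slc39a8*, among others. *Srxn1*, which repairs oxidized peroxiredoxins, was 11.4, 14.5, 14.8 and 13.1 CPM in the matrix and 87.8, 126, 144 and 133 CPM in the early shaft (log2 fold change -3.35, SE 0.14, edgeR adjusted p = 4.00e-26). *Txnrd1*, thioredoxin reductase, was 107 ± 4.97 against 198 ± 13.2 CPM and had an r of 0.82 with *Mt4* over the 44 sums. This comparison depends on the scaling. With library size alone, which is also the scale of the CPM values, the median gene moved from 0.05 to 0.27, 6 list genes were higher and 8 lower, and 56.2% rather than 37.8% of all calls were higher.

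Against upper follicle spots, 6 of 55 were higher and 11 lower, where 14.9% of all genes were higher and 20.1% lower. *Slc30a1*, *Slc39a6*, *Slc39a10*, *Slc39a14* and *Mtf2* were called higher again, along with *Gsr*, glutathione reductase. The comparisons share the matrix sums. *Slc30a1* was 162, 114, 131 and 143 CPM in upper follicle spots (log2 fold change 1.87, SE 0.10, edgeR adjusted p = 2.75e-22). *Sgk1*, *Dusp1* and *Klf9* were called lower, *Sgk1* at 64.7 ± 6.88 against 345 ± 38.1 CPM.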

How the data were processed

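Fresh-frozen dorsal skin was profiled on Visium slides. The authors deposited UMI counts per gene and spot for 4 slices, made with Space Ranger 2.0.1 per the file headers and on mm10 per the submitters' processing notes, without normalization and for spots over tissue. Intron counting was not given in the sources used here. Positions are from GENCODE M21 on GRCm38.

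The minimum was 250 detected genes in a spot. No doublet caller was used because a spot is not 1 cell. List scores are mean z-scores of log counts per 10000 plus 1. CPM is computed from summed UMIs. Sums per slice and compartment were tested with edgeR 4.0.16 under R 4.3.3 (TMM, filterByExpr, glmQLFit over all 44 sums), a step tested on simulated data. The SE is the log2 fold change over the root of F. Sums of 1 slice come from the same sections, so slice numbers pair them by design, and same-numbered deviations correlated at 0.05 to 0.21 over 11922 genes; the fit without a slice block was used. The members and lists were chosen with earlier results of these data known. Named genes are the members, the listed genes and the 5 genes most like each member with at least 1000 UMIs.

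Alternatives were the minimum mean z, a lead of 0.25 between lists, z within slices, summed lists, Leiden clusters (scanpy 1.11.5), thinning to 5500 UMIs, CPM without hair keratin genes, all spots, the median of spots, 3 strips, each slice left out, DESeq2 1.42.0, its size factors, library size alone, no low-count filter and the slice block. Distances from the matrix, the 3 groups of matrix spots, the slice spread over genes and the top 5% of spots were added after seeing the data. *CreERT* was not analysed here.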

Additional observations from a re-analysis of the deposited data

Results flagged for a closer look

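A slice stood far from the other 3 in 7 of 66 sets of 4 slices examined for *Mt1*, *Mt2* and *Mt4*, where chance flags about 1 in 20. Of these, 4 had slice 1 as the high one. *Mt1* in early shaft spots was 175.281 CPM in slice 1 against 116 to 125 CPM in the others. *Mt4* in dermis spots was 542.203 CPM in slice 1 against 176 to 228 CPM. *Mt4* was also high in slice 1 at 1 step from the epidermis (416.461 CPM against 154 to 178 CPM) and at 2 steps (528.212 CPM against 182 to 231 CPM). *Mt2* was high in slice 4 in outer root sheath spots (129.822 CPM against 78.5 to 84.3 CPM) and at 2 steps from the epidermis (207.66 CPM against 110 to 125 CPM). *Mt1* at 8 steps was low in slice 3, with 566.674 CPM against 924 to 966 CPM.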

How the results depend on the processing

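No ratio between compartments turned sign in the 144 alternative values of 12 results, and 122 stayed within the spread between slices or within 1.5 times the count. *Mt1* and *Mt2* were highest in the matrix in 16 of 16 alternatives, and *Mt4* in early shaft in 14 of 16, the inner root sheath being higher by the median of spot CPM and in strip 1. *Mt3* was highest in muscle in 13 of 16.
The log2 ratio of *Mt4* in early shaft over matrix spots moved under the most alternatives, 10 of 16: it was 2.06 at a minimum mean z of 1, 2.17 with a lead of 0.25, 1.69 with summed lists, 1.76 in thinned spots, 2.01 without hair keratin genes, 1.31 by the median of spots, 1.60, 2.17 and 1.22 in strips 1 to 3, and 2.52 in Leiden clusters. Over epidermis spots *Mt4* was 1.65 by the median of spots, 1.96 and 1.91 in strips 1 and 3, and 3.06 in Leiden clusters. Matrix over epidermis was 2.34 (*Mt1*) and 2.19 (*Mt2*) with summed lists and 2.29 and 2.19 in strip 1. Matrix over muscle was 1.52 (*Mt1*) and 1.48 (*Mt2*) at a minimum mean z of 1, and for *Mt1* 1.46 with a lead of 0.25 and 1.27 with summed lists.
Without each slice in turn, *Mt1* stayed between 2.50 and 2.61 and *Mt2* between 2.33 and 2.45 over the epidermis. The peak steps of 8, 8 and 6 did not move in the alternatives run for them.
Called list genes numbered 19 to 22 against the epidermis (20 in the main setting), 10 to 14 against early shaft (11) and 15 to 20 against upper follicle spots (17), and none of the main calls changed sign. With the replicate block the counts were 19, 12 and 17, and 19, 11 and 17 of the main calls remained.
Slices of the same 3 mice leave the spread between mice unmeasured. Spots mix cells, RNA spreads between them, and 134 UMIs allow no order for *Mt3*.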

Other observations

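Several list genes had their highest level outside the compartments compared above. *Hmox1* was highest in late shaft spots, at 126 CPM against 46.2 CPM in the epidermis and 6.30 CPM in the matrix. *Slc39a8*, an importer of zinc and manganese, was highest in inner root sheath spots (265 CPM) and next in early shaft spots (212 CPM), and its r with *Mt4* over the 44 sums was 0.71. *Gpx4*, which protects membrane lipids from peroxidation, and *Sod1*, which uses copper and zinc, were highest in sebaceous gland spots, at 990 and 262 CPM. *Gclc* and *Gclm* were highest in outer root sheath spots (101 and 119 CPM), where *Mt1* had its lowest mean. *Commd1*, which takes part in copper export, was highest in the matrix (116 CPM) and had an r of 0.66 with *Mt1*. These levels are means of 4 slices, and the order between compartments was not tested.

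Promoter windows were found for 53 of the 63 list genes, and 19 of these (35.8%) held at least 1 match to the metal response element core in a window, against 21.4% of all windows. *Slc30a1* held 1. The figure per gene takes the window with the most matches where a gene has several, which can raise it over the share of single windows.

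The 3 strips of each slice gave similar matrix levels. *Mt1* in matrix spots was 1232 ± 73.2, 1342 ± 134 and 1111 ± 87.1 CPM in strips 1 to 3 (SD, n = 4 slices).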
